A study of Mus musculus with 8 samples.

Results

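The genes described here are 49 genes of DNA replication: the helicase and the factors that load and start it, the origin recognition complex, the sliding clamp and its loader, the polymerases, the enzymes that supply nucleotides, and a pair of factors that copy DNA methylation. They were listed by name as S-phase genes, with no rule on their values, but earlier results of these data were known when the list was made. Of the 49 genes 45 had a named probe among the 15123 genes tested. Gins1, Gins2, Rfc3 and Rfc5 were not analysed here. No filter on low values was applied. Each of 8 two-colour microarrays compared null with wild-type crypt RNA, from the mouse intestine, so each gene has 1 log ratio per array. Both genotypes were on the CD1 background, and the null allele is an Lgr4 (Gpr48) gene trap back-crossed to CD1. The 4 groups of 2 arrays were null against wild-type crypts at day 0, at day 0.5 and at day 1 of culture, and at day 1 with LiCl (lithium chloride, an inhibitor of GSK3). Animal ages, the pooling of animals and whether the 2 arrays of a group came from separate cultures are not given in the labels, so a p-value reflects only how far these arrays vary, possibly for technical reasons.

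Ratios are written on the log2 scale (the base is assumed), so -1 is a 2-fold lower value in null crypts, and every array was centred on its median. The ratios likely run null over wild type, since the labels put the null RNA in channel 1 on every array. On that reading 5 of 6 measured Paneth cell genes were lower at day 0, which does not by itself settle the direction. For the LiCl arrays it is unsettled which way the ratio runs. Over all probes both LiCl arrays correlated below 0 with the 6 other arrays (r from -0.493 to -0.0855 over 12 pairs). Deviations from the group mean, however, correlated above 0 between same-numbered arrays as deposited. For LiCl r was 0.210 with day 0, 0.229 with day 0.5 and 0.271 with day 1, and turning the LiCl sign would make these negative. The labels differ on whether the wild-type RNA of replicate 1 was also treated. LiCl values are therefore given as deposited and with the sign turned. Cy5 marked the null RNA on each day 0.5 array, and the dyes were swapped within each other group. A fitted value comes from limma with a term for that dye, ± gives its standard error, and a gene passed where its p, adjusted by Benjamini-Hochberg over all genes, was under 0.05. Since the arrays hold ratios only, neither the level of a gene nor the presence of the crypt epithelium could be read from them. In bulk RNA, fewer dividing cells and less RNA per cell cannot be told apart.

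DNA replication begins when the origin recognition complex, with Cdc6 and Cdt1, loads the ring of Mcm2 to Mcm7 onto DNA. Kinases then recruit Cdc45 and the GINS complex, which turn the ring into an active helicase, and polymerases follow with the clamp PCNA. Many of these genes are transcribed together as cells enter S phase, under E2F transcription factors. In the intestine, the dividing cells sit in the crypt, and the differentiated cells above them have left the cycle.

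At day 1, replication genes were lower in null crypts in every functional class, though not every gene passed. Of the 45 measured genes 40 were lower and 0 higher, against 11.1% lower and 9.38% higher (20.5% in either direction) among all genes tested, and 32 of the 40 differed at least 2-fold. The median of the 45 was -1.45, beside 0.00 for all genes. On replicate 1 they ran from -2.56 to -0.12 with a median of -1.49, and on replicate 2 from -2.57 to 0.14 with a median of -1.26. Below 0 on both day 1 arrays were 44 of 45, which held for 33% of all genes, and above 0 on both were 0 (33.7%). Among the 500 lowest of the 15123 genes at day 1 stood 32 of the 45. Leaving out replicate 1 of day 1 gave 31 lower genes, and leaving out replicate 2 gave 35.

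**Figure D1:**
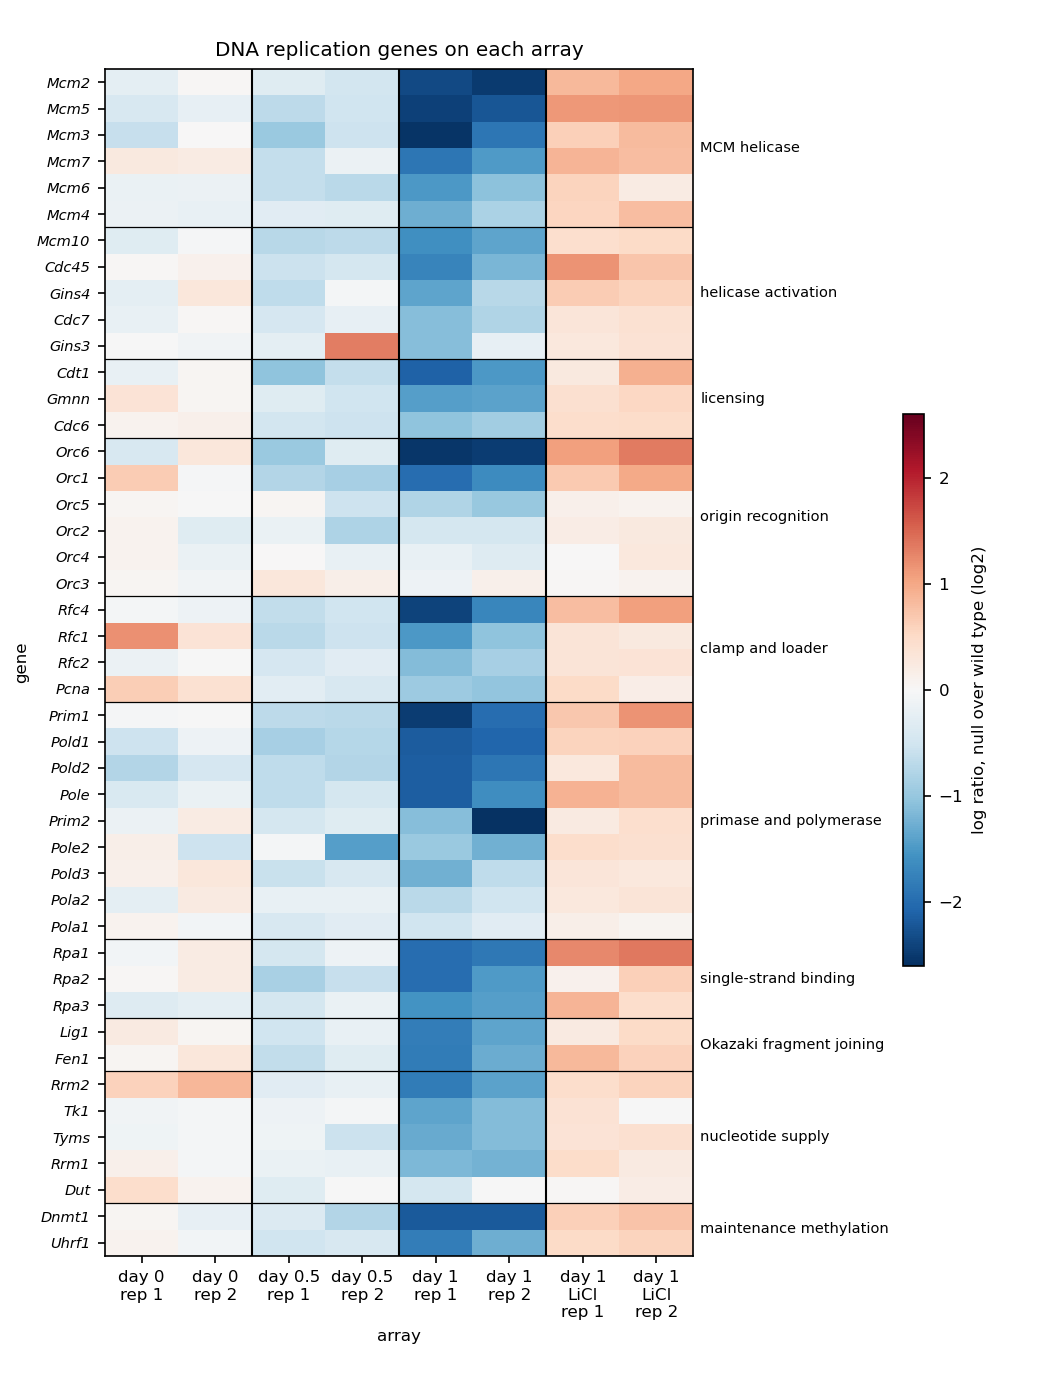
Log ratio (null over wild type, log2, colour) of the 45 measured DNA replication genes (rows, grouped by function) on each of the 8 arrays (columns). The 2 day 1 columns are blue for nearly every gene, with a median of -1.49 and -1.26, and the LiCl columns as deposited are pale red, with medians of 0.46 and 0.51.

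**Figure D2:**
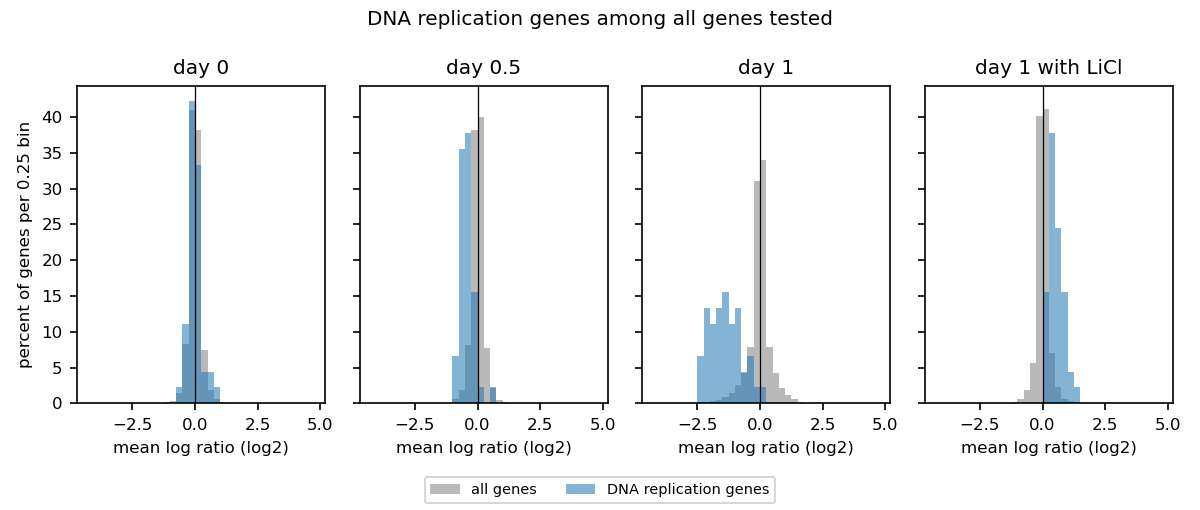
Share of genes (percent per bin of 0.25) by mean log ratio of the 2 arrays (log2) in each group, for all 15123 genes (grey) and the 45 DNA replication genes (blue). The blue histogram lies over the grey one at day 0, left of it at day 0.5 and day 1, and right of it with LiCl as deposited.

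The replicative helicase showed some of the largest differences. All 6 subunits, Mcm2 to Mcm7, were lower at day 1, from -2.42 to -1.05. Mcm2 stood at -2.35 and -2.49 on the day 1 arrays, against -0.25 and 0.03 at day 0, -0.30 and -0.48 at day 0.5, and 0.84 and 1.00 with LiCl. Mcm5 had -2.43 and -2.21 at day 1, -0.42 and -0.20 at day 0, -0.67 and -0.52 at day 0.5, and 1.14 on both LiCl arrays. In both genes the day 1 arrays lay below every other array, and replicates were close. The fitted day 1 values were -2.42 ± 0.12 for Mcm2 (5.35-fold, limma adjusted p = 7.74e-05) and -2.32 ± 0.10 for Mcm5 (5.00-fold, adjusted p = 5.97e-05). Mcm4 had the smallest difference of the ring, -1.28 and -0.82 at day 1 (-0.14 and -0.19 at day 0, -0.28 and -0.31 at day 0.5, 0.57 and 0.81 with LiCl), fitted at -1.05 ± 0.13. Its 2 probes disagreed, at -2.20 and 0.10, so its average understates one of them.

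Factors that start the helicase were lower for 4 of 5 measured genes. Mcm10, which helps the helicase to unwind, had -1.59 and -1.36 at day 1, -0.31 and -0.02 at day 0, -0.73 and -0.68 at day 0.5, and 0.44 and 0.51 with LiCl. Cdc45 at -1.45 ± 0.11, the GINS subunit gene Gins4 at -1.05 ± 0.17 and the kinase gene Cdc7 at -0.94 ± 0.11 were also lower. Gins3, another GINS subunit gene, did not pass (-0.65 ± 0.35, adjusted p = 0.279). Its replicates disagreed at -1.10 and -0.21 at day 1 and at -0.26 and 1.33 at day 0.5, while it had 0.00 and -0.09 at day 0 and 0.27 and 0.38 with LiCl. The 3 licensing genes were all lower. Cdt1, the loading factor, had the lowest gene average of these, from 1 probe. It had -2.09 and -1.50 at day 1 against -0.20 and 0.05 at day 0, -1.04 and -0.62 at day 0.5, and 0.26 and 0.93 with LiCl. Gmnn, whose product geminin inhibits Cdt1, was lower as well (-1.41 ± 0.11), and so was Cdc6, with -1.04 and -0.90 at day 1, 0.09 and 0.12 at day 0, -0.48 and -0.54 at day 0.5, and 0.46 and 0.47 with LiCl. The 3 probes of Cdc6 ran from -1.84 to -0.21 at day 1, and the 2 of Cdc7 stood at -1.63 and -0.26. The rank of Cdt1 below Cdc6 therefore depends on averaging the probes.

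The origin recognition complex was divided. Orc6, its smallest and most loosely bound subunit, had the lowest day 1 gene average of all 45 genes, from 1 probe. Single probes of Rrm2 (-2.75) and Uhrf1 (-2.61) lay lower but were averaged with others. Orc6 stood at -2.52 and -2.48 at day 1, against -0.41 and 0.29 at day 0, -0.97 and -0.32 at day 0.5, and 1.06 and 1.36 with LiCl. Its fitted day 1 value was -2.50 ± 0.20 (5.65-fold, limma adjusted p = 0.000363). Orc1, the largest subunit, was lower at -1.81 ± 0.17, and Orc5 at -0.88 ± 0.15. The core subunit genes Orc2, Orc3 and Orc4 did not pass. Orc3 had -0.12 and 0.14 at day 1, 0.04 and -0.08 at day 0, 0.29 and 0.16 at day 0.5, and 0.03 and 0.10 with LiCl. Its arrays overlapped between groups, and the 95% interval of its day 1 value was -0.25 to 0.26. The intervals were -0.83 to -0.09 for Orc2 (adjusted p = 0.0900) and -0.50 to -0.03 for Orc4 (adjusted p = 0.123).

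Promoters are shown for members that moved together and for one that did not, because E2F sites are the textbook feature of this group. RefSeq's promoter table (GRCm38.p6, 250 bases before to 50 bases after each gene start) held 53 promoters of 41 of the 49 genes. They were searched on both strands for 4 words of the E2F site: the word TTCCCGC, the word TTCGCGC, the word TTGCCGC and the word TTGGCGC, where overlapping matches count separately. At least 1 promoter of 27 of the 41 genes (65.9%) held a word, against 15.2% of 12213 tested genes with a promoter. The share was 23 of 34 among the genes that were lower at day 1 and 3 of 5 among those that did not pass. The CCAAT word was found for 25 of 41 genes (42.8% of tested genes), and the TCF words CTTTGAT or CTTTGAA for 3 of 41 (8.54% of tested genes). Capitals mark the E2F words below. Mcm5 and Mcm3 hold 3 matches each, which partly overlap. Orc6 holds none of these words in this window although it had the lowest day 1 gene average, and Orc3 holds 1 although its value was near 0.
Mcm5, chr8:75109259-75109558, plus strand: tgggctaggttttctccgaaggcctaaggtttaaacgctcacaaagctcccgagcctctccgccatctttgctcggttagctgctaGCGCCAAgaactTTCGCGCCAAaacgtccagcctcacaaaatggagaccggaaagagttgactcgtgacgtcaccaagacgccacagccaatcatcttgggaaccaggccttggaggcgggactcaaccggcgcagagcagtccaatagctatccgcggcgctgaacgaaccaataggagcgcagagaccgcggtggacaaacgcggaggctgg
Mcm3, chr1:20820263-20820562, minus strand: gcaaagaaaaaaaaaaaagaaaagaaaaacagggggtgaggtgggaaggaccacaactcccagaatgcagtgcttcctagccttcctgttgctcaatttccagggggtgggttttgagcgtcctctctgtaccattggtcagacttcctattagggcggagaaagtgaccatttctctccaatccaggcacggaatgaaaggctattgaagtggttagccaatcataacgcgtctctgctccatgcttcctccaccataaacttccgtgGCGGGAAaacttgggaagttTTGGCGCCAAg
Orc6, chr8:85299382-85299681, plus strand: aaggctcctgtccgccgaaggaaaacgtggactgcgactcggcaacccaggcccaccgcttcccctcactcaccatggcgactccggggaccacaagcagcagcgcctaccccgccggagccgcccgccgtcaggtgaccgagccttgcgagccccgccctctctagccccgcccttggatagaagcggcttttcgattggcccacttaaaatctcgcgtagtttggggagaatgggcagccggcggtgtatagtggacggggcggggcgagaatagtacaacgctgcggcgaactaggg
Orc3, chr4:34614893-34615192, minus strand: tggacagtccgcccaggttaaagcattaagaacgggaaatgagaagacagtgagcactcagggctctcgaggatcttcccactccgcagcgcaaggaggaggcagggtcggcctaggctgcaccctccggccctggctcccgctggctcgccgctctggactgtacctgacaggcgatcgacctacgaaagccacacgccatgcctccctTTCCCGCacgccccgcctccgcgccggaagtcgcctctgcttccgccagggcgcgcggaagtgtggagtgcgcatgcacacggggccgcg

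Among the polymerases all 9 genes were lower at day 1, but over a wide range. Prim1, the catalytic subunit of primase, had -2.46 and -1.98 at day 1, -0.02 and -0.01 at day 0, -0.67 and -0.70 at day 0.5, and 0.69 and 1.16 with LiCl, and was fitted at -2.22 ± 0.15 (4.66-fold). Pold1 and Pold2, the catalytic and an accessory subunit of polymerase delta, stood at -2.11 ± 0.11 and -2.00 ± 0.16, and Pole, the catalytic subunit of polymerase epsilon, at -1.88 ± 0.11. The subunits of polymerase alpha had smaller values, each from 1 probe, so a weak probe cannot be told from a smaller difference. Pola1, the catalytic subunit, had -0.52 and -0.30 at day 1, 0.10 and -0.06 at day 0, -0.42 and -0.29 at day 0.5, and 0.16 and 0.07 with LiCl, fitted at -0.41 ± 0.11 (adjusted p = 0.0343), and Pola2 was at -0.62 ± 0.11. Pola1 did not pass when either day 1 array was left out or when arrays were scaled to equal spread. The replicates of Prim2, the other primase subunit, were far apart at day 1 (-1.11 and -2.57), and those of Pole2 at day 0.5 (-0.05 and -1.44).

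The clamp and its loader were lower for all 4 measured genes. Pcna, the sliding clamp, had -0.94 and -1.03 at day 1, 0.64 and 0.39 at day 0, -0.27 and -0.42 at day 0.5, and 0.49 and 0.17 with LiCl. It was above 0 on both day 0 arrays and below 0 on the 4 later untreated arrays. Rfc4, a loader subunit gene, had the largest difference of the class, -2.41 and -1.69 at day 1 against -0.04 and -0.13 at day 0, -0.64 and -0.51 at day 0.5, and 0.81 and 1.08 with LiCl. Rfc1, the large subunit, was at -1.26 ± 0.20, and Rfc2 at -0.99 ± 0.10.

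The 3 subunits of RPA, which coats single-stranded DNA, were lower to a similar degree, from -1.92 to -1.49. Rpa1, the large subunit, had -1.98 and -1.85 at day 1, -0.07 and 0.22 at day 0, -0.45 and -0.13 at day 0.5, and 1.25 and 1.37 with LiCl. Rpa3, the small subunit, had -1.56 and -1.43 at day 1, -0.33 and -0.26 at day 0, -0.46 and -0.18 at day 0.5, and 0.88 and 0.45 with LiCl. Both enzymes that join Okazaki fragments were lower as well. The flap nuclease gene Fen1 had -1.82 and -1.29 at day 1, 0.05 and 0.30 at day 0, -0.64 and -0.31 at day 0.5, and 0.84 and 0.61 with LiCl, and the ligase gene Lig1 had -1.79 and -1.36, 0.24 and 0.05, -0.52 and -0.20, and 0.24 and 0.51 in the same order. For RPA and for this pair no day 1 array overlapped any other array.

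Genes of nucleotide supply were lower for 4 of 5. Rrm2, the regulated subunit of ribonucleotide reductase, had -1.81 and -1.40 at day 1, against 0.60 and 0.87 at day 0, -0.30 and -0.19 at day 0.5, and 0.46 and 0.57 with LiCl. Its partner Rrm1 was at -1.20 ± 0.11, the thymidylate synthase gene Tyms at -1.22 ± 0.13 and the thymidine kinase gene Tk1 at -1.25 ± 0.10. Dut, whose product removes dUTP, did not pass: it had -0.46 and -0.01 at day 1, 0.46 and 0.10 at day 0, -0.32 and 0.00 at day 0.5, and 0.03 and 0.18 with LiCl, and its 95% interval at day 1 was -0.60 to 0.13. Both maintenance methylation genes were lower. Dnmt1, the enzyme that methylates new DNA strands, had -2.18 and -2.19 at day 1, 0.05 and -0.21 at day 0, -0.36 and -0.76 at day 0.5, and 0.61 and 0.74 with LiCl. Uhrf1, which recruits Dnmt1 to hemimethylated sites, had -1.80 and -1.26, 0.09 and -0.08, -0.52 and -0.42, and 0.50 and 0.59 in the same order.

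**Figure D3:**
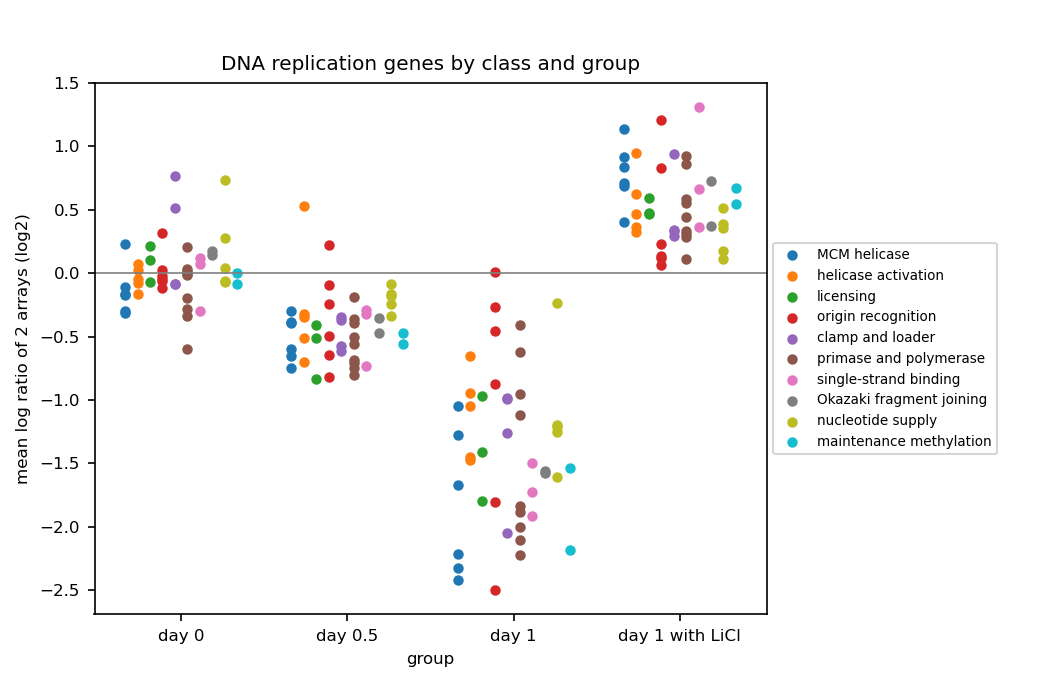
Mean log ratio of the 2 arrays (log2, 1 point per gene) of the 45 DNA replication genes in the 4 groups, coloured by functional class. Points lie around 0 at day 0 and from -2.50 to 0.01 at day 1, with origin recognition genes at both ends of the day 1 range.

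Part of the spread between genes lay between probes of the same gene. The 45 genes had 70 probes, 28 genes with 1 probe and 17 with 2 to 4. Of the 70 probes 67 were below 0 on both day 1 arrays, against 32.7% of all probes used. In 8 of the 17 genes with several probes the probe means at day 1 lay more than 1 apart. Uhrf1 had probes at -2.61 and -0.46, the 4 probes of Rrm2 ran from -2.75 to -0.48, and those of Tyms from -2.18 to -0.08. The gene averages above are between these values, and with the median of the probes in place of the mean the count of lower genes was also 40.

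**Figure D4:**
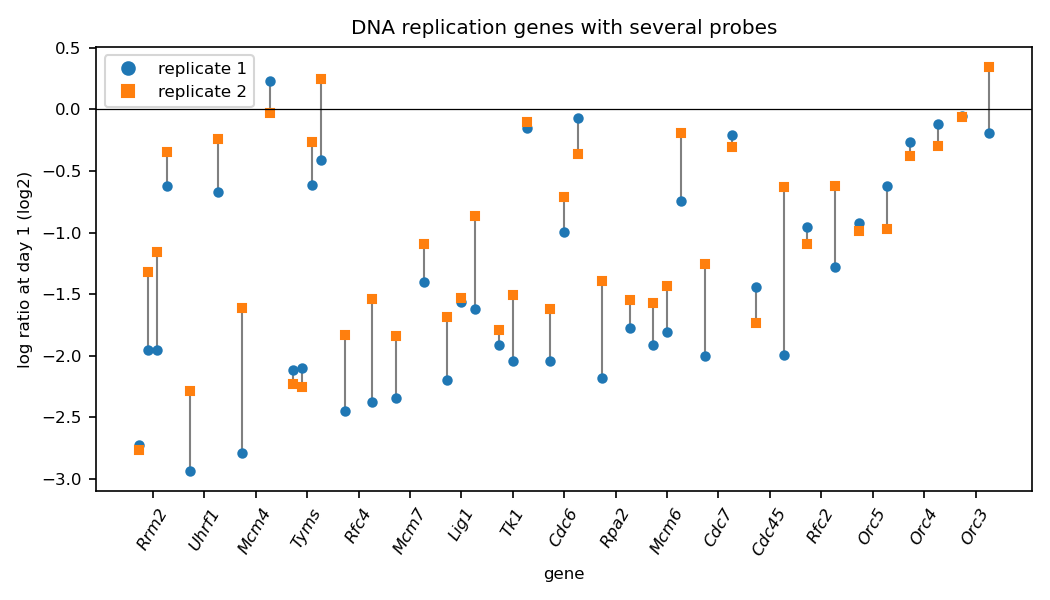
Log ratio at day 1 (log2) of each probe of the 17 DNA replication genes with several probes; a circle is replicate 1, a square replicate 2, and a grey line joins the 2 arrays of a probe. Probes of Rrm2, Uhrf1, Mcm4 and Tyms are spread over more than 2 units, while those of Rfc4 and Rpa2 lie close together.

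At day 0 the group as a whole did not stand apart. One gene passed, Rrm2, which was higher in null crypts at 0.74 ± 0.12 (1.67-fold, adjusted p = 0.0293), and 0 were lower. Of all genes 1.22% were higher and 1.01% lower (2.23% in either direction). The median of the 45 was -0.02, and 14 were below 0 on both arrays (30.7% of all genes) and 12 above (27.9%). Pcna at 0.51 ± 0.12 (adjusted p = 0.0999) and Rfc1 at 0.77 ± 0.20 (adjusted p = 0.125), whose arrays had 1.18 and 0.35, were also above 0 on both arrays without passing. At the other end Pold2 had -0.60 ± 0.16 (adjusted p = 0.126). With the replicate number as a block 3 genes passed, Rrm2 and Pcna higher and Pold2 lower (adjusted p = 0.0114, 0.0348 and 0.0493). The call of Rrm2 was lost with arrays scaled to equal spread (adjusted p = 0.0941), and 0 of the 45 passed when any single array of day 0, day 0.5 or day 1 was left out, while 2 did without either LiCl array.

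At day 0.5, limma called 0 of the 45 genes, against 0.159% of all genes lower and 0.278% higher (0.436% in either direction), and 26 were below 0 with an unadjusted p under 0.05, against 5.47% of all genes. Values were nonetheless mostly on one side: 41 of 45 were below 0 on both arrays, which held for 28% of all genes, and 1 was above 0 on both (28.9%). The median was -0.37, with array medians of -0.47 and -0.42. The lowest fitted values were Orc1 at -0.92 ± 0.19, Pole2 at -0.90 ± 0.34 and Cdt1 at -0.80 ± 0.24. With the replicate block 5 genes were lower, Mcm3 (-0.63 ± 0.11), Mcm10 (-0.65 ± 0.11), Cdt1 (-0.89 ± 0.12), Pold1 (-0.74 ± 0.12) and Rpa2 (-0.76 ± 0.12), with adjusted p from 0.0304 to 0.0454. Without the dye term 5 passed, and 7 when replicate 2 was taken as a dye swap. The day 0.5 calls over all genes also moved under the alternatives (range in the last paragraph). Both arrays of this group carry the null RNA in Cy5, so its value rests on the dye estimate from the other groups.

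Between the time points the ratio moved down. From day 0 to day 1 it fell in 37 of 45 genes (4.79% of all genes) and rose in 0 (3.6% of all genes, 8.39% in either direction), with a median change of -1.50. The largest changes were in Orc6 (-2.44 ± 0.29, adjusted p = 0.00455), Rrm2 (-2.34 ± 0.17, adjusted p = 0.00115) and Mcm2 (-2.31 ± 0.16, adjusted p = 0.00115). In 44 of 45 genes both day 1 arrays were below both day 0 arrays, as in 24.8% of all genes. The 37 genes that fell became 7 when day 0 replicate 1 was left out, 18 for day 0 replicate 2 and 19 for day 1 replicate 1. From day 0 to day 0.5 it passed in 0 genes (of all genes 0.0595% fell and 0.0727% rose, 0.132% together), with 14 below 0 at an unadjusted p under 0.05 (4.23% of all genes) and a median change of -0.41. From day 0.5 to day 1 it fell in 20 genes (1.43% of all genes) and rose in 0 (0.555%, or 1.99% in either direction), with a median change of -1.02. These included Mcm2 (-2.02 ± 0.18), Orc6 (-1.93 ± 0.31) and Mcm5 (-1.80 ± 0.15). Arrays scaled to equal spread gave 0. Leaving out any day 0 array gave 2, the first or second day 0.5 array 3 or 4, and the first or second day 1 array 0 or 7. In 39 of 45 genes both day 1 arrays were below both day 0.5 arrays (23.3% of all genes). The mean of the arrays went down at both steps in 42 of 45 genes, against 21.4% of all genes. These changes share their day 0 or day 1 arrays and are not independent of each other.

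At day 1 with LiCl, taken as deposited, replication genes were above 0. Of the 45 genes 14 were higher and 0 lower (1.37% of all genes higher and 1.21% lower, 2.58% together), with a median of 0.47, and 43 were above 0 on both arrays (30.2% of all genes) and 0 below 0 on both (27.8%). Rpa1 at 1.31 ± 0.12 (2.48-fold, adjusted p = 0.00966), Orc6 at 1.21 ± 0.20 (adjusted p = 0.0331) and Mcm5 at 1.14 ± 0.10 (adjusted p = 0.00966) had the largest values. All 14 were among the genes that were lower at day 1 without LiCl, but so were 40 of the 45. This overlap therefore says little about LiCl. With the sign turned, 21 genes were lower and 0 higher (2.59% of all genes lower and 2.32% higher), with a median of -0.47. As deposited, the LiCl calls over all genes moved widely under the alternatives (range in the last paragraph). The count among the 45 was 23 with the replicate block and 28 with arrays scaled to equal spread. It fell to 4 on leaving out any day 0 array, to 9 for any day 1 array and to 0 for any LiCl array.

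Under either sign the LiCl values were nearer to 0 than those of day 1 without LiCl in 44 of 45 genes and in 71.2% of all genes. The LiCl arrays were narrower over all probes (SD 0.282 and 0.247, against 0.473 and 0.441 at day 1). As deposited, the ratio was higher with LiCl than without in 39 genes (10.4% of all genes) and lower in 0 (8.53%, or 18.9% in either direction), with a median difference of 1.95. The largest differences were 3.71 ± 0.29 for Orc6, 3.46 ± 0.14 for Mcm5 and 3.34 ± 0.16 for Mcm2. All 45 fitted LiCl values were above 0 as deposited, so turning the sign lowers every difference. With the LiCl sign turned, the ratio was higher in 24 genes (3.74% of all genes) and lower in 0 (3.09%), with a median difference of 0.84. All 24 were among the 39, an overlap largely set by the turning itself. Orc6 then differed by 1.29 ± 0.24 (adjusted p = 0.022) and Mcm5 by 1.18 ± 0.14 (adjusted p = 0.00441), while Rpa1 did not pass (0.60 ± 0.15, adjusted p = 0.0577). Cell type markers differed between the same arrays. As deposited, 7 of 8 crypt base stem cell genes and 5 of 6 Paneth cell genes were higher with LiCl than without, and 7 of 9 enterocyte, 4 of 5 goblet cell and 9 of 10 enteroendocrine cell genes were lower. With the sign turned, 7 stem cell and 5 Paneth cell genes were higher, and 2 enterocyte, 3 goblet cell and 6 enteroendocrine cell genes were lower. All 9 enterocyte genes were below 0 on both LiCl arrays as deposited (medians -0.55 and -0.59). The part of these markers in the LiCl values was not tested.

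**Figure D5:**
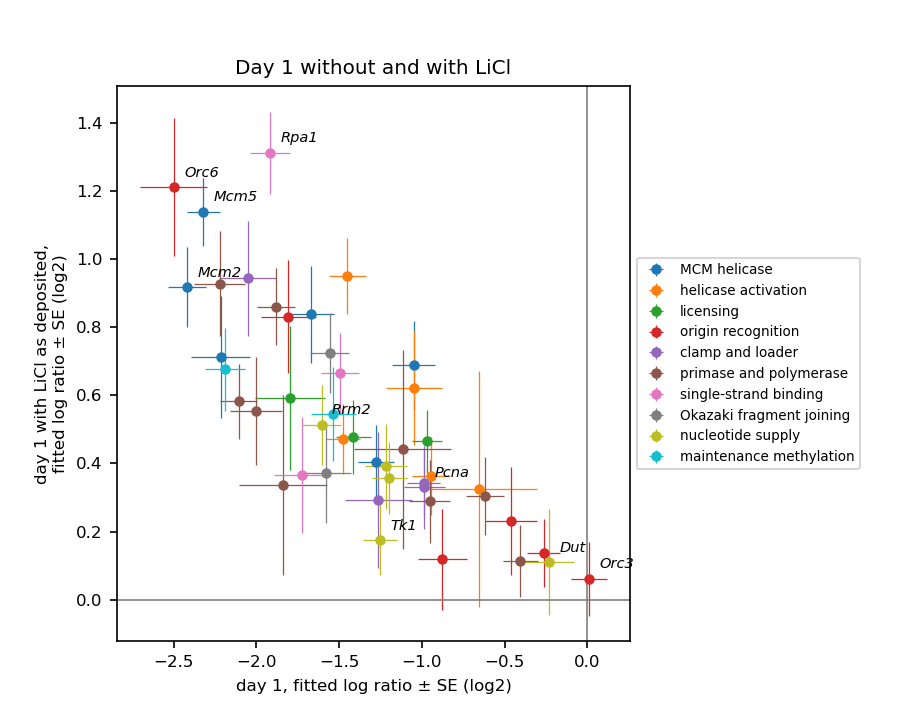
Fitted log ratio (log2) of each of the 45 DNA replication genes at day 1 without LiCl (horizontal) and with LiCl as deposited (vertical); bars are limma standard errors and colours are functional classes. Orc6, Mcm5, Mcm2 and Rpa1 lie at the upper left, and Orc3 and Dut near 0 on both axes; turning the LiCl sign would mirror the plot about the horizontal line.

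Most other genes around replication were lower at day 1 too, in 4 of 5 lists. Among all genes tested 11.1% were lower and 9.38% higher at day 1. Of 14 measured regulators of S-phase entry 9 were lower and 0 higher (median -0.87), with cyclin A gene Ccna2 at -2.40 ± 0.18 and Dbf4, the activator of the Cdc7 kinase, at -1.71 ± 0.11 as the lowest, and Skp2 at -0.60 ± 0.09 and E2f2 at -0.40 ± 0.10 as the smallest that passed. The retinoblastoma gene Rb1 had 0.45 ± 0.15 and did not pass. At day 0 Cdk2, the kinase partner of cyclins E and A, was higher (0.93 ± 0.12, adjusted p = 0.0131). Of 19 fork and checkpoint genes 16 were lower (median -0.96), led by the topoisomerase gene Top2a at -2.57 ± 0.22 and the checkpoint scaffold gene Topbp1 at -2.08 ± 0.19. Pold4, the smallest subunit of polymerase delta, was higher at 0.88 ± 0.14 (adjusted p = 0.0042), against its partners Pold1, Pold2 and Pold3. The smallest lower values of this list were Donson at -0.40 ± 0.12 and Mcmbp, which binds MCM proteins, at -0.42 ± 0.10.

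Of 9 chromatin assembly genes 7 were lower and 0 higher at day 1 (median -1.41), against 11.1% lower and 9.38% higher among all genes. The histone chaperone genes Chaf1b at -2.26 ± 0.19 and Asf1b at -1.98 ± 0.14 were the lowest, and Hells at -1.14 ± 0.21 and Supt16 at -0.72 ± 0.14 the smallest that passed. Asf1a, the other Asf1 gene, had -0.10 ± 0.11, and Chaf1a had 0.10 ± 0.14. Of 16 further genes of nucleotide synthesis 13 were lower and 0 higher (median -1.23), from Dtymk, the thymidylate kinase, at -1.75 ± 0.11 and Paics, of purine synthesis, at -1.72 ± 0.22 to Impdh1 at -0.54 ± 0.10 and Atic at -0.50 ± 0.11. The 3 that did not pass were Tk2, a mitochondrial thymidine kinase, at -0.22 ± 0.16, Rrm2b, a ribonucleotide reductase subunit used outside S phase, at -0.03 ± 0.09, and Samhd1, which degrades dNTPs, at 0.14 ± 0.11. Among inhibitors of cyclin-dependent kinases the genes that passed were all higher. Of 7 measured 0 were lower and 3 higher (median 0.21), Cdkn2b at 1.19 ± 0.14, Cdkn1c at 1.14 ± 0.21 and Cdkn1a at 0.85 ± 0.13. Another 3 of the 7 had fitted values below 0, the lowest at -0.32, without passing.

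Markers of crypt cell types differed in the same arrays, and their part in the values above was not tested. Shares among all genes tested were 11.1% lower and 9.38% higher at day 1, and 1.01% lower and 1.22% higher at day 0. At day 1, 7 of 8 crypt base stem cell genes were lower (array medians -1.77 and -1.48), from Cdca7 at -2.84 ± 0.20 to Lgr5 at -1.09 ± 0.11, and 5 of 6 Paneth cell genes, from Lyz1 at -3.54 ± 0.14 to Itln1 at -0.94 ± 0.10. Higher at day 1 were 5 of 9 enterocyte genes (array medians 1.15 and 0.48), from Krt20 at 1.43 ± 0.16 to Fabp2 at 0.81 ± 0.21, 4 of 5 goblet cell genes (1.25 and 1.11), from Zg16 at 2.30 ± 0.16 to Agr2 at 0.55 ± 0.14, and 9 of 10 enteroendocrine cell genes (0.95 and 0.88), from Ghrl at 1.40 ± 0.11 to Chga at 0.61 ± 0.10. Of 8 general epithelial genes 3 were higher, from Krt19 at 0.84 ± 0.12 to Krt18 at 0.51 ± 0.10. Some of these differences were already there at day 0, where the replication genes were near 0. There 5 of 6 Paneth cell genes (median -1.23) and 2 of 8 stem cell genes (median -0.39) were lower and 0 higher. Higher at day 0 was 1 of 9 enterocyte genes. At day 0.5, 4 Paneth cell and 2 stem cell genes were lower and 0 higher. Immune cell genes were lower for 6 of 9 at day 0, whereas at day 1 2 were, Lyz2 at -1.30 ± 0.18 and H2-Ab1 at -0.65 ± 0.14. Of 9 mesenchyme genes Vim alone was called at day 1 (1.02 ± 0.10), and of 6 endothelium genes 0 were called by limma there, also at an unadjusted p under 0.05.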

How the data were processed

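The deposited table holds log2 values, with the base assumed: for every probe, 1 ratio between both channels of an array, already centred near 0. Per the labels, RNA was amplified, labelled with Cy5 or Cy3 and hybridised to MEEBO 70mer arrays; how background and normalization were handled is not given in those sources, and signal over background is unknown. Of 38467 probes, 22941 had 1 gene symbol in the platform's gene table and the rest no name there; 636 control-series probes were left out and the remaining 22305 averaged to 15123 genes. Columns of other series numbered 0. Arrays were median-centred. limma 3.58.1 in R 4.3.3 fitted a mean per group and a dye term to all 8 arrays (3 residual and 4.09 prior degrees of freedom), after a check on simulated data. With 2 arrays a group, the median standard error was 0.117 at day 0, day 1 and with LiCl and 0.135 at day 0.5, where the dyes were not swapped.

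Same-numbered arrays deviated together (r from 0.21 to 0.278 over 6 pairs, LiCl as deposited), so the replicate number was taken to pair them. This pairing comes from the data. Pairs without LiCl had r from 0.265 to 0.278. Those with LiCl (0.210 to 0.271) would be negative with the sign turned, so counts with the replicate block assume the deposited direction. Alternatives changed the scaling, dye term, probes, block, arrays and LiCl sign. All 49 genes could be named; both array values are given for the lowest and highest day 1 gene of each class, genes that passed at day 0 or day 0.5, and the 3 largest LiCl values; other lists are named at their ends. The genes and lists were chosen with earlier results of these data known. Python 3.11.15, numpy 2.4.6, pandas 2.3.3 and matplotlib 3.10.9 searched promoters and drew figures.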

Additional observations from a re-analysis of the deposited data

Results flagged for a closer look

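The ratio of null to wild type differed between groups, by the limma contrast of the groups themselves, for 37 of the 45 genes from day 0 to day 1, for 20 from day 0.5 to day 1 and for 39 from day 1 to day 1 with LiCl as deposited. The 5 largest changes from day 0 to day 1 were -2.44 in Orc6, -2.34 in Rrm2, -2.31 in Mcm2, -2.20 in Prim1 and -2.13 in Orc1. From day 0.5 to day 1 they were -2.02 in Mcm2, -1.93 in Orc6, -1.80 in Mcm5, -1.68 in Rpa1 and -1.65 in Mcm3. With LiCl the largest differences from day 1 were 3.71 in Orc6, 3.46 in Mcm5, 3.34 in Mcm2, 3.23 in Rpa1 and 3.15 in Prim1, on arrays whose direction is not settled. Groups of 2 arrays are too small to look for single arrays that stand apart.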

How the results depend on the processing

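The count of genes lower at day 1 (40) stayed between 31 and 41 under all 15 alternatives run, and 652 of 675 single-gene values at day 1 kept their sign and their side of the threshold. Exceptions in sign were 2 genes that did not pass: Orc3 (-0.17 to 0.19 when one day 1 array was left out) and Dut (-0.59 to 0.12). With the replicate block, 3 genes passed at day 0 (1 without it), 5 at day 0.5 (0) and 23 with LiCl (14), and no other count of calls moved by over 1.5 times. With arrays scaled to equal spread the counts were 0 at day 0, 28 with LiCl and 0 from day 0.5 to day 1. With the 6 arrays without LiCl, 2 passed at day 0. At day 0.5, dropping the dye term gave 5 and treating its second array as dye-swapped gave 7. With the LiCl sign turned, 24 rose from day 1 to LiCl. Leaving out 1 array at a time gave 0 to 2 genes at day 0, 0 at day 0.5, 31 to 41 at day 1, 0 to 10 with LiCl, 0 from day 0 to day 0.5, 7 to 37 from day 0 to day 1, 0 to 20 from day 0.5 to day 1 and 35 to 40 from day 1 to LiCl; these fits have fewer arrays. The cause of the other moves was not tested. Over all genes, limma called 337 at day 0 (26 to 610 under the alternatives), 66 at day 0.5 (9 to 341), 3103 at day 1 (912 to 3829) and 390 with LiCl (4 to 1653). The depth of signal behind each ratio is unknown, and 2 arrays a group limit the precision.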
